A study of Mus musculus with 3 samples.

Results

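The solute carrier genes of mouse bone marrow-derived dendritic cells were described on arrays of cells kept with PTX, with LPS or with PBS. Solute carriers are membrane proteins that move ions, metals, amino acids, sugars, vitamins and nucleotides across the plasma membrane and across the membranes of mitochondria, lysosomes, Golgi and vesicles. Their genes are named Slc, followed by a family number and a member letter and number. A gene was kept when its symbol begins with Slc and a digit and 1 of its probe sets, read by no other symbol, reached an intensity of 200 on at least 1 of the 3 arrays. Slc2a1, Slc16a3 and Slc7a11 were left out by the same rule. This kept 153 of 344 such genes with a probe set of their own, out of 18193 genes in all. Members were thus chosen by their intensity on the arrays described here, so their levels are a description and no count below is a test.

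The members fell into 41 families, and 40 of these were placed in 15 groups by the substrate the family is known for. Slc49a4 was in none of the groups. Slc9a3r1, a scaffold protein that binds a sodium/proton exchanger, and Slc4a1ap, named for binding an anion exchanger, carry the letters of the rule but are not carriers themselves, and they were counted with the family whose name they bear.

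Antigen-presenting cells depend on several of these families. Phagocytes move iron and manganese out of the phagosome, import copper and shift zinc between cytosol and vesicles, which starves or poisons microbes. Arginine carriers feed nitric oxide synthesis, and lysosomal carriers return peptides, nucleosides, sialic acid and amino acids to the cytosol. Many carriers have narrow tissue ranges, so that an array also holds carriers best known from neurons, kidney or red cells.

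PTX cells were given a stimulus labelled PTX at 100 ng/mL, LPS cells received lipopolysaccharide, a part of the outer membrane of bacteria that Toll-like receptor 4 senses, at 1 µg/mL, and PBS cells were the control, each for 24 h. All were nonadherent marrow cells of female mice aged 6 weeks, collected on day 7 of culture with GM-CSF at 20 ng/mL, and they carried no stated transgene or deletion. The strain label reads C57BL/7 for the PTX sample and C57BL/6 for the LPS and PBS samples, and PTX is not spelled out in the labels. Each group held 1 array, and the labels do not say whether the cultures shared a mouse. No difference below therefore has a replicate check, an error or a test, and animal, preparation and stimulus cannot be told apart.

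Of the marker genes, 9 of 9 for dendritic cells and 9 of 9 for macrophages were at 200 or more on at least 1 array, so these lists do not tell dendritic cells from macrophages, and Flt3, a growth factor receptor of dendritic cells, read 253 (PTX), 181 (LPS) and 62.1 (PBS). None of the T cell, B cell, NK cell or erythroid markers with a probe set was at that level. The summed intensity of the dendritic cell markers was 25152 (PTX), 34256 (LPS) and 20914 (PBS), and that of the macrophage markers was 36424 (PTX), 33761 (LPS) and 21689 (PBS). Neutrophil, mast cell and stromal markers had 2, 1 and 1 genes at the level, among them Camp, Cpa3 and Dcn, which read highest on the LPS array at 259, 549.6 and 373. The rest of these 3 lists did not move with them. Their log2 differences of LPS minus PBS ran in both directions, from -1.05 to 0.87, and all but Ngp were under 200. Of the 9 macrophage markers 2 were at least 2-fold higher in PTX against PBS, 3 were higher and 1 lower in LPS against PBS, and 5 were higher in PTX against LPS. Of the 9 dendritic cell markers 2 were higher in PTX against PBS, 4 were higher in LPS against PBS, and none passed 2-fold in PTX against LPS. Of all 8437 genes at 200 or more on at least 1 array, 4.03% were higher in PTX against PBS. In LPS against PBS 7.38% were higher and 10.8% lower, and 11.9% were higher in PTX against LPS. The LPS array stood apart in other ways, with a median noncontrol intensity of 65.3, against 86.9 (PTX) and 85.7 (PBS), and a 3′ to 5′ ratio of 18S ribosomal RNA of 1.95, against 0.198 (PTX) and 0.26 (PBS). The part of these features in the differences below was not tested. In cultures measured whole, fewer cells of a type and less RNA per cell cannot be told apart.

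LPS against PBS separated the carriers more than PTX against PBS did in these arrays. Genes were counted from 2-fold on, that is from a log2 difference of 1 in size after 16 was added to each intensity. In LPS against PBS 16 of the 153 carriers (10.5%) were higher, where 7.38% of all 8437 genes at the same level were higher. Another 14 carriers (9.15%) were lower, beside 10.8% of all genes. In PTX against PBS 5 carriers (3.27%) were higher beside 4.03% of all genes, and none was lower beside 2.89%. In PTX against LPS 19 carriers (12.4%) were higher beside 11.9% of all genes, and 11 (7.19%) were lower beside 6.91%. These shares lie within a few points of the background, and both stimuli were set against the same PBS array. In all, 37 carriers passed 2-fold in some comparison and 116 in none. The 3 comparisons share arrays, and this count was not made over all genes, so it has no background beside it.

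The middle of the carriers lay near that of all genes. Their median log2 difference was 0.0082 in LPS against PBS, where that of all genes was -0.0295. It was 0.098 in PTX against PBS, beside 0.0062 for all genes, and 0.030 in PTX against LPS, beside 0.044. The LPS array had the lowest median intensity, and rescaling moved both LPS comparisons. Centring each array on its median put the median of all genes at 0.29 in LPS against PBS and at -0.30 in PTX against LPS. The carriers then split into 29 higher and 11 lower in LPS against PBS (19% and 7.19%, beside 13.3% and 7.41% of all genes), and into 13 higher and 19 lower in PTX against LPS (8.5% and 12.4%, beside 7.64% and 14.3%). Quantile normalization gave 19 higher and 11 lower in LPS against PBS (12.4% and 7.19%, beside 7.76% and 8.88%), and 16 higher and 15 lower in PTX against LPS (10.5% and 9.8%, beside 9.28% and 8.33%). Scaling on the 75th percentile gave 29 higher and 10 lower in LPS against PBS (19% and 6.54%, beside 12.7% and 7.79%), and 15 higher and 19 lower in PTX against LPS (9.8% and 12.4%, beside 7.96% and 13.5%). Relative to the median of all genes, the carriers lay between 0.038 and 0.12 in LPS against PBS over the deposited values and these 3 scalings. Slc7a8, Slc22a16 and Slc49a4 were within 2-fold in LPS against PBS in each of the 3 scalings, and Slc7a2 was with quantile normalization. In PTX against LPS Slc16a6 and Slc22a16 were within 2-fold in all 3, Slc6a6 with median centring and the 75th percentile, Slc16a11 with median centring and quantile normalization, and Slc30a3 and Slc45a4 with median centring. Scaling on the 75th percentile also turned Slc25a29, to 0.43 in LPS against PBS and -0.41 in PTX against LPS, where another probe set stood for it. In PTX against PBS the split stayed at 5 or 6 higher and at most 1 lower.

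**Figure D1:**
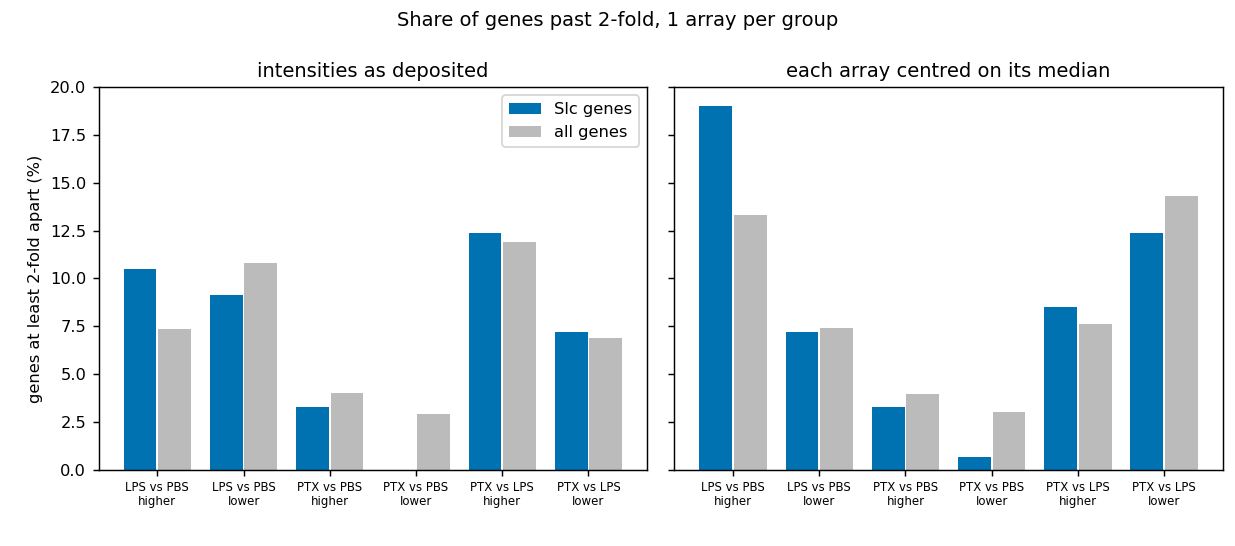
Share of genes (percent, vertical axis) at least 2-fold higher or lower in each comparison, for the 153 carriers (blue) and for all 8437 genes at the same level (grey), with 1 array per group. The left panel uses intensities as deposited and the right panel centres each array on its median. The share of carriers lower in PTX against PBS is 0% on the left and 0.654% on the right, and the share higher in LPS against PBS is 10.5% on the left and 19% on the right.

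The level of 200 admitted 111 carriers on all 3 arrays, 17 on the PTX and PBS arrays, 2 on the PTX and LPS arrays, 9 on the PTX array alone, 8 on the LPS array alone and 6 on the PBS array alone. A carrier admitted by some arrays alone tends to be lower on the others by the way it was chosen. Of the 14 carriers lower in LPS against PBS, 12 were below 200 on at least 1 array. Slc4a1, Slc40a1, Slc35e4, Slc25a29, Slc39a10, Slc22a4, Slc16a11, Slc30a3, Slc22a16, Slc49a4 and Slc45a4 were admitted by the PTX and PBS arrays alone. A lower LPS reading of these genes follows from how they were chosen. Asking for 200 on all 3 arrays, which removes genes that are low on any of them, left 110 carriers and 6515 genes in all. In LPS against PBS 12 of these carriers were then higher and 2 lower, beside 5.86% and 4.9% of all genes. PTX against PBS had 1 higher and none lower, beside 3.48% and 1.47%, and PTX against LPS had 4 higher and 9 lower, beside 6.57% and 5.51%. Just inside the level lay Slc25a25, Slc20a2, Slc45a1, Slc9a3 and Slc5a3, with highest readings of 203 to 207. Just outside lay Slc14a1, Slc26a11, Slc25a26, Slc15a2 and Slc43a3, with highest readings of 187 to 199.6. The left-out glucose importer gene Slc2a1 read 1428 (PTX), 2704 (LPS) and 1795 (PBS), the lactate carrier gene Slc16a3 read 47.6 (PTX), 128 (LPS) and 51.5 (PBS), and the cystine importer gene Slc7a11 read 728 (PTX), 798 (LPS) and 1241 (PBS).

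**Figure D2:**
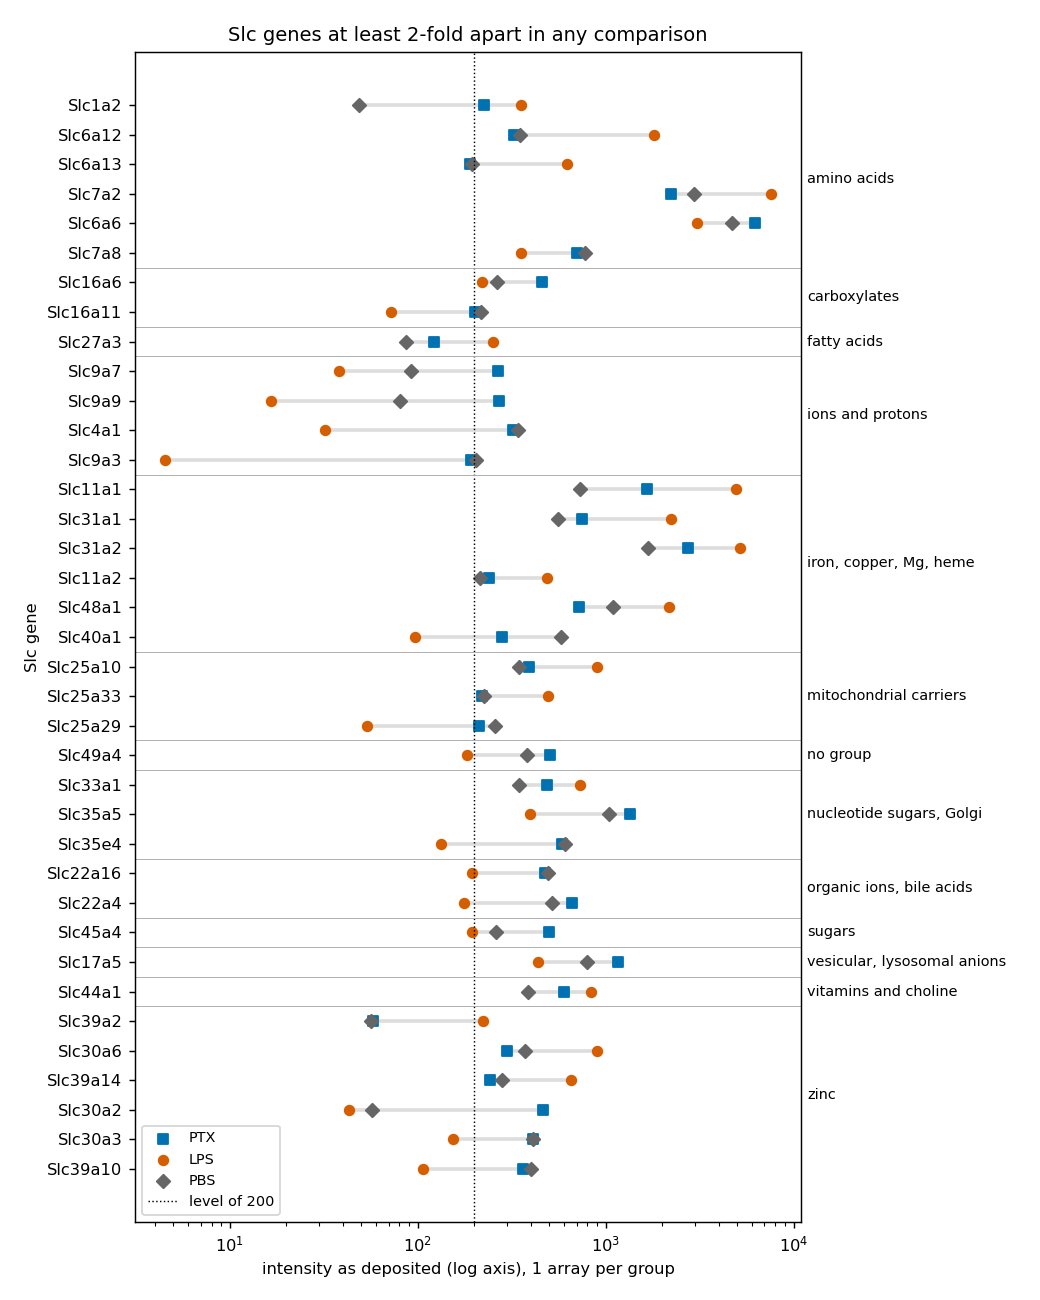
Intensity as deposited (log axis) of the 37 carriers at least 2-fold apart in any comparison, by substrate group, with 1 symbol per array (square PTX, circle LPS, diamond PBS) and a grey line over the range. The dotted line is the level of 200. In most lines the square and the diamond lie close together with the circle to 1 side, and Slc30a2, Slc9a7 and Slc9a9 have the square farthest to the right.

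Metal carriers of the iron, copper, magnesium and heme group moved in both directions with LPS. LPS against PBS had 4 of 9 genes higher and 1 lower, with 4 within 2-fold and a median of 0.97 that lay between 0.79 and 1.29 over the scalings. Slc11a2 is among the higher genes, though its other probe set at 200 differed by 0.29. With PTX against PBS 1 was higher and 8 were within 2-fold, with a median of 0.22. PTX against LPS had 1 higher, 3 lower and a median of -0.91, which stayed below 0 in each scaling. Group sizes are small and the groups were formed with these results known, so the counts describe these arrays alone. Counts of groups and gene lists here and below stand beside the shares of all 8437 genes at the level. These were 7.38% higher and 10.8% lower in LPS against PBS, 4.03% and 2.89% in PTX against PBS, and 11.9% and 6.91% in PTX against LPS.

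Slc11a1 encodes the phagosomal exporter of iron and manganese, also known as Nramp1. It read 1651 in PTX, 4911 in LPS and 729 in PBS. The LPS reading was the highest, the PTX reading lay between, and the log2 differences were 2.73 for LPS minus PBS, 1.16 for PTX minus PBS and -1.56 for PTX minus LPS. C57BL/6 mice are known to carry a loss-of-function allele of Slc11a1, and the array measured its transcript, not its transport.

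Both copper carriers were higher with LPS. Slc31a1, the high-affinity copper importer of the plasma membrane, read 753 in PTX, 2232 in LPS and 561 in PBS (LPS minus PBS 1.96, PTX minus PBS 0.41). Its other probe set at 200 read 553 (PTX), 881 (LPS) and 411 (PBS), a smaller difference of 1.07 in the same direction. Slc31a2, a related carrier of late endosomes and lysosomes, read 2742 (PTX), 5182 (LPS) and 1687 (PBS), with LPS minus PBS at 1.61 and PTX minus PBS at 0.70, and its other probe set read 665 (PTX), 2609 (LPS) and 521 (PBS), with LPS minus PBS at 2.29 and PTX minus PBS at 0.34. All 4 probe sets thus read highest in LPS.

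Iron carriers read in both directions with LPS. Slc40a1, the lower gene, was admitted by the PTX and PBS arrays alone, so a lower LPS reading follows from how it was chosen. Slc40a1 encodes ferroportin, the iron exporter of the plasma membrane, and read 282 in PTX, 97.1 in LPS and 578 in PBS. LPS minus PBS was -2.39 and PTX minus PBS was -0.994, just short of 2-fold. Under a pseudocount of 1, median centring, quantile normalization or the 75th percentile Slc40a1 was the carrier that passed 2-fold lower in PTX, at -1.03, -1.01, -1.06 and -1.01. Its other probe set stayed under 200 and read 189 (PTX), 117 (LPS) and 194 (PBS), a PTX difference of -0.036. Slc11a2, the iron importer DMT1, read 239 (PTX), 485 (LPS) and 215 (PBS), with LPS minus PBS at 1.11, but its other probe set at 200 read 245 (PTX), 223 (LPS) and 179.6 (PBS), a difference of 0.29.

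Heme and magnesium carriers completed the group. Slc48a1 returns heme from the phagolysosome to the cytosol and read 719 in PTX, 2168 in LPS and 1098 in PBS, with PTX minus LPS at -1.57 and LPS minus PBS at 0.97. The other probe set of Slc48a1 read 805 (PTX), 755 (LPS) and 1334 (PBS), so the probe sets disagreed on the LPS direction (0.97 and -0.81) while both were lower in PTX (-0.60 and -0.72). The magnesium carriers Slc41a1, Slc41a2 and Slc41a3 were within 2-fold in each comparison.

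Promoter windows of RefSeq (assembly GRCm38.p6, 250 bases before to 50 after a transcript start) are shown for Slc11a1, Slc31a1 and Slc31a2, which were higher together with LPS. Windows of the other metal carriers above are not shown. Of the 153 members 121 had a window in the table. Capitals mark a match, on either strand, to any of 8 motifs: ISRE (GAAANNGAAA, in 3.44% of all 32851 windows), GAS (TTCNNNGAA, 8.3%), AP-1 (TGANTCA, 7.81%), E-box (CACGTG, 7.15%), a metal response element core or MRE (TGCACNC or TGCGCNC, 25.7%), kappaB (4.51%), ARE (TGACNNNGC, 12.4%) and CARE (TGATGNAAT, 0.965%).
Slc11a1, chr1:74374953-74375252, plus strand: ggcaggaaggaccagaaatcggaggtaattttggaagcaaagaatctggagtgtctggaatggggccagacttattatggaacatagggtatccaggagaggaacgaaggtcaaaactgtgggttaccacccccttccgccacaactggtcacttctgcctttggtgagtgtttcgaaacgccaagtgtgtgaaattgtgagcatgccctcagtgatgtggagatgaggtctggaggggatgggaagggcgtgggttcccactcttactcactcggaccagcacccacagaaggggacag
Slc31a1, chr4:62360451-62360750, plus strand: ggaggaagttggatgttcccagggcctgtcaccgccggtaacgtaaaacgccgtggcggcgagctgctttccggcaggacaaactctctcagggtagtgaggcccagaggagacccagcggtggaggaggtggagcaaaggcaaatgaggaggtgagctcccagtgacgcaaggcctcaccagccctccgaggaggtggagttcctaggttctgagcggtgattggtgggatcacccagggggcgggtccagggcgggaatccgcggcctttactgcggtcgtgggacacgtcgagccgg
Slc31a2, chr4:62286179-62286478, plus strand: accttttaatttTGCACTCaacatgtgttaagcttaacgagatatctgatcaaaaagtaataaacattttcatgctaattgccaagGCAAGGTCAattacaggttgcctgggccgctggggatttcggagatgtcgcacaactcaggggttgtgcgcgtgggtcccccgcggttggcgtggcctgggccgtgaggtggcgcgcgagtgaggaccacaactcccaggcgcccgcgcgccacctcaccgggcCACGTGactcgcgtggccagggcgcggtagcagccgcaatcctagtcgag
The windows of Slc11a1 and Slc31a1 held no match. That of Slc31a2 held an MRE match (TGCACTC), an ARE match on the reverse strand (printed as GCAAGGTCA) and an E-box (CACGTG). A match is a run of letters in a window and no measured binding.

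Zinc carriers moved in both directions. The Slc30 proteins carry zinc out of the cytosol, into vesicles or out of the cell, and the Slc39 proteins carry it in. Of 18 zinc carriers 3 were at least 2-fold higher in LPS against PBS, 2 were lower and 13 were within 2-fold. Among all genes at the level 7.38% were higher and 10.8% lower, so a split in direction was not particular to zinc carriers. The median was -0.076 as deposited and 0.25 after median centring. PTX against PBS had 1 higher and 17 within 2-fold, with a median of 0.020 that reached -0.0053 under another scaling. PTX against LPS had 3 higher and 3 lower.

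Slc30a2 was admitted by the PTX array alone, so a higher PTX reading follows from how it was chosen. It encodes a vesicular zinc transporter known from the mammary gland, and it read 462 in PTX, 43.2 in LPS and 57 in PBS. The PTX reading stood alone above 200, at a log2 difference of 2.71 from PBS and 3.01 from LPS, from the single probe set of the gene. Slc30a3, the zinc carrier of synaptic vesicles in neurons, read 412 (PTX), 154 (LPS) and 409.9 (PBS), low in LPS alone (LPS minus PBS -1.33). It was admitted by the PTX and PBS arrays alone, so a lower LPS reading follows from how it was chosen.

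Importers of the Slc39 family held both directions with LPS. Slc39a14, a zinc and iron importer known for its induction in inflamed liver, read 242 in PTX, 651 in LPS and 282 in PBS (LPS minus PBS 1.16). Slc39a2 read 57.9 (PTX), 223 (LPS) and 56.2 (PBS), with LPS minus PBS at 1.73 and passed the level in LPS alone. Slc39a10, an importer of the plasma membrane, read 363 (PTX), 107 (LPS) and 402 (PBS), with LPS minus PBS at -1.76. Of these, Slc39a2 had 1 probe set and the other probe sets of Slc39a14 and Slc39a10 were under 200, so none had a further reading at the level. Slc39a2 was admitted by the LPS array alone and Slc39a10 by the PTX and PBS arrays alone. Their directions with LPS thus follow from how they were chosen.

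Golgi zinc carriers did not all move alike. Slc30a6, which works with Slc30a5 to load the early secretory pathway, read 299.8 in PTX, 899 in LPS and 373 in PBS (LPS minus PBS 1.24, PTX minus LPS -1.54). Slc30a7, another zinc carrier of the Golgi, read 1055 (PTX), 1035 (LPS) and 909 (PBS), a difference of 0.19. The importer Slc39a1 read 2752 (PTX), 3712 (LPS) and 2101 (PBS), with LPS minus PBS at 0.82, within 2-fold. The window of Slc30a2 is shown because that gene stood apart in PTX, and it held 2 MRE matches on the reverse strand, printed as GCGCGCA and GGGCGCA.
Slc30a2, chr4:134343216-134343515, plus strand: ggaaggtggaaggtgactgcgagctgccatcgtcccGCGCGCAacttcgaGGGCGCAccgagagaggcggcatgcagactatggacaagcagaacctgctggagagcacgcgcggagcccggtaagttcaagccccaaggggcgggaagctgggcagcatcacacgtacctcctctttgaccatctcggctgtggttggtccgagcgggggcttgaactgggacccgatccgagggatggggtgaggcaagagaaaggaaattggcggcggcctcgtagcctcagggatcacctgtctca
Among the 121 members with a window 56 held an MRE match, 29 an ARE match, 27 an E-box and 13 a kappaB match, and of the 13 carriers higher in LPS with a window 4 held an MRE match, 3 an ARE match and 3 an E-box. A member was counted when any of its windows matched, and some members have several. The percentages given with the motifs are shares of single windows, so these counts cannot be set against them.

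Metallothioneins and other handlers of the same metals were not carriers and gave a separate reading. Of 3 zinc-handling genes at the level, Mt2, a zinc-binding metallothionein, was higher in LPS against PBS (1.497), and Mt1 (-1.29) and Mt2 (-2.35) were lower in PTX against LPS. Of 9 iron-handling genes at the level none passed 2-fold in LPS against PBS. Lower in PTX against PBS were 2 of the 9, the transferrin receptor gene Tfrc, at 633 in PTX against 1312 in PBS (-1.03), and the heme oxygenase gene Hmox1, at 1142 in PTX against 2427 in PBS (-1.08). Hmox1 was also lower in PTX against LPS (-1.79).

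Amino acid carriers made up 24 members. LPS against PBS had 4 higher and 1 lower among them, beside 7.38% and 10.8% of all genes, with 19 within 2-fold. The median was 0.19 (0.19 to 0.51 over the scalings). PTX against PBS had 1 higher and 23 within 2-fold, with a median of 0.045. PTX against LPS had 1 higher and 3 lower, with a median of -0.12. Those past 2-fold with LPS carry betaine, GABA, glutamate, arginine or large neutral amino acids.

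Slc6a12, the betaine and GABA carrier known from osmotic regulation in the kidney, read 325 in PTX, 1803 in LPS and 349 in PBS. LPS minus PBS was 2.32 and PTX minus LPS was -2.41. Slc6a13, a GABA carrier of the same family, read 191 (PTX), 624 (LPS) and 195 (PBS), with LPS minus PBS at 1.60 and PTX minus LPS at -1.63. In both genes PTX and PBS lay together and LPS stood above them. Slc6a13 was admitted by the LPS array alone, so its higher LPS reading follows from how it was chosen. They are neighbours in the RefSeq gene order on chromosome 6, and their windows with the earliest start are shown because they moved together.
Slc6a12, chr6:121342324-121342623, plus strand: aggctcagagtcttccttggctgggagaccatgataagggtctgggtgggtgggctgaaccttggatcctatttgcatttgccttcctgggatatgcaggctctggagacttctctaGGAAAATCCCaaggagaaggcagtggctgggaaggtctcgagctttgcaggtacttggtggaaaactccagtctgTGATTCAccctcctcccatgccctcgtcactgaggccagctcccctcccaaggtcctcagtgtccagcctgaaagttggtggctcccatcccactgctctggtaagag
Slc6a13, chr6:121300038-121300337, plus strand: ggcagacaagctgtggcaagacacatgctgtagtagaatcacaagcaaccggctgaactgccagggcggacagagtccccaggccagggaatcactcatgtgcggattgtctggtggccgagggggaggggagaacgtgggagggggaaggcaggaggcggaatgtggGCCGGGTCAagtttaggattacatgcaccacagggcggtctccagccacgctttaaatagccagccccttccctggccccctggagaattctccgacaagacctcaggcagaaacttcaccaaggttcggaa
That of Slc6a12 held a kappaB match on the reverse strand (printed as GGAAAATCCC) and an AP-1 match (TGATTCA), and that of Slc6a13 held an ARE match on the reverse strand (GCCGGGTCA). Of 13 carriers higher in LPS with a window, 3 held a kappaB match and none an ISRE match, where 13 and 2 of all 121 members with a window did. Both counts take a match in any window of a gene, and no such count was made over all genes.

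Arginine carriers were read by several probe sets. Slc7a2, a cationic amino acid carrier known to supply arginine for nitric oxide synthesis in macrophages, read 2233 in PTX, 7543 in LPS and 2951 in PBS, with LPS minus PBS at 1.35 and PTX minus LPS at -1.75. All 4 of its probe sets reached 200 and read highest in LPS and lowest in PTX. Their LPS minus PBS ran from 0.42 to 3.66, and their PTX minus PBS ran from -1.24 to -0.40, past 2-fold in 2 of the 4. The probe set at 3.66 read 152 (PTX), 4975 (LPS) and 380 (PBS).

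The other amino acid carriers past 2-fold handle neutral amino acids, taurine and glutamate. Slc7a8, an exchanger of large neutral amino acids, read 704 in PTX, 353 in LPS and 775 in PBS (LPS minus PBS -1.10). Slc6a6, the taurine carrier, read 6253 (PTX), 3056 (LPS) and 4697 (PBS), with PTX minus LPS at 1.03, while another of its probe sets at 200 read 2310 (PTX), 1943 (LPS) and 1569 (PBS), with PTX minus LPS at 0.25, and 1 more read 359.9 (PTX), 61 (LPS) and 329.9 (PBS), at 2.29. Slc1a2, the glutamate carrier of astrocytes, read 226 (PTX), 356 (LPS) and 48.8 (PBS), a difference of 2.52 for LPS minus PBS and 1.90 for PTX minus PBS. It was admitted by the PTX and LPS arrays alone, so a lower PBS reading follows from how it was chosen. The 4 other probe sets of Slc1a2 stayed under 200, and the brightest of them read 109.98 (PTX), 191 (LPS) and 113 (PBS), so its PTX difference rests on 1 probe set that can match several transcripts.

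Some amino acid carriers outside the rule for named genes were picked after their values were seen, for their roles. Slc3a2, the heavy chain shared by several amino acid exchangers, read 2600.2 in PTX, 4221 in LPS and 2583 in PBS (LPS minus PBS 0.71), and its partner Slc7a7 read 528 (PTX), 655 (LPS) and 359.7 (PBS), with LPS minus PBS at 0.84. Slc7a1, the widely expressed arginine importer, read 316 (PTX), 309 (LPS) and 460.4 (PBS), a difference of -0.55 for LPS minus PBS and -0.52 for PTX minus PBS. Another probe set of Slc7a1 at 200 had LPS minus PBS at -1.01 and PTX minus PBS at -0.70. Slc1a5, a glutamine importer, read 746 (PTX), 802 (LPS) and 922 (PBS), with LPS minus PBS at -0.20, and Slc38a2, a neutral amino acid importer that responds to starvation, read 2069 (PTX), 1446 (LPS) and 2448 (PBS), with LPS minus PBS at -0.75. Slc38a9, the arginine sensor of the lysosome, read 457 (PTX), 301 (LPS) and 310.2 (PBS), with PTX minus PBS at 0.54, with 4 probe sets at 200 that all read highest in PTX. None of these passed 2-fold in its standing probe set.

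The amino acid starvation response, which induces several carriers through Atf4, was split. Of 13 such genes at the level 2 were higher in LPS against PBS, Ddit4 (2.17) and Nupr1 (2.15), and 4 were lower, Sesn2 (-2.80), Atf3 (-1.61), Phgdh (-1.09) and Psat1 (-1.05). In PTX against PBS Nupr1 was higher (1.18), and the serine synthesis genes Phgdh (-2.16) and Psat1 (-1.59) were lower. Atf4 itself read 2553 in PTX, 3463 in LPS and 2464 in PBS.

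Ion and proton carriers made up 12 members. Of these 3 were lower in LPS against PBS, beside 10.8% of all genes, none was higher and 9 were within 2-fold. The median was -0.30 as deposited and 0.021 after median centring. PTX against PBS had 2 higher and 10 within 2-fold, with a median of 0.11. In PTX against LPS 4 were higher, with a median of 0.069 that turned to -0.27 after median centring.

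The sodium/proton exchanger genes Slc9a7 and Slc9a9 were admitted by the PTX array alone, so a higher PTX reading follows from how they were chosen. Slc9a7, an exchanger of the trans-Golgi network and endosomes, read 268 in PTX, 38.2 in LPS and 92 in PBS. PTX minus PBS was 1.39 and PTX minus LPS was 2.39. Slc9a9, an exchanger of recycling and late endosomes, read 269.6 (PTX), 16.7 (LPS) and 80.9 (PBS), with PTX minus PBS at 1.56, PTX minus LPS at 3.13 and LPS minus PBS at -1.57. In both, PTX stood above 200 and LPS was lowest. Slc9a7 had a single probe set, and the 3 other probe sets of Slc9a9 read at most 64.9 on any array.

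Slc9a3 and Slc4a1 were dim on the LPS array. Slc9a3 was admitted by the PBS array alone and Slc4a1 by the PTX and PBS arrays alone. A lower LPS reading of both follows from how they were chosen. Slc9a3, the exchanger of kidney and gut epithelium, read 193 in PTX, 4.55 in LPS and 205 in PBS (LPS minus PBS -3.43). At so dim a reading the size depends on the pseudocount, at -5.21 with 1 and -1.97 with 64. Slc4a1, the anion exchanger of red cells, read 323 (PTX), 32.2 (LPS) and 341 (PBS), with LPS minus PBS at -2.89. PTX and PBS lay close together in both, and each had its other probe sets under 200 with no difference of this size: that of Slc9a3 read 46.4 (PTX), 68.5 (LPS) and 55 (PBS), and those of Slc4a1 differed by -0.29 and 0.095, so that Slc4a1 was within 2-fold without probe sets that can match several transcripts. No erythroid marker reached the level beside Slc4a1, with a summed reading of 63 (PTX), 75.4 (LPS) and 47.9 (PBS) for the 2 erythroid markers with a probe set.

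Sulfate carriers of the same group showed how 1 probe set can decide a value. Slc26a2, a sulfate carrier needed for cartilage, read 832 in PTX, 416 in LPS and 734 in PBS (LPS minus PBS -0.80). Its other probe sets at 200 had LPS minus PBS at -2.22 and -0.91. Slc26a1, picked after its values were seen because its probe sets disagreed, entered through a probe set that read 443 (PTX), 2.34 (LPS) and 3.72 (PBS), a PTX minus PBS of 4.54, while the probe set with the higher mean read 47.8 (PTX), 47.4 (LPS) and 59.7 (PBS), with PTX minus PBS at -0.25. The scaffold gene Slc9a3r1 read 1813 (PTX), 2103 (LPS) and 1608 (PBS), within 2-fold.

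Nucleotide sugar and Golgi carriers bring activated sugars to the glycosylation machinery. Of 19 genes 16 were within 2-fold in LPS against PBS and all 19 in PTX against PBS, with medians of -0.050 (0.27 after median centring) and -0.020. Of all 8437 genes at the level 6902 and 7853 were within 2-fold in these comparisons, so staying within 2-fold was not particular to this group. Slc33a1, the acetyl-CoA carrier of the endoplasmic reticulum, read 486 in PTX, 735 in LPS and 348 in PBS (LPS minus PBS 1.05). Slc35e4 read 584 (PTX), 133 (LPS) and 609.9 (PBS), with LPS minus PBS at -2.08, and its other probe sets, all under 200, differed by 0.050 and 0.036. It was admitted by the PTX and PBS arrays alone, so a lower LPS reading follows from how it was chosen. Slc35a5 read 1348 (PTX), 396 (LPS) and 1039 (PBS), with LPS minus PBS at -1.36, but its other probe set at 200 read 172 (PTX), 221 (LPS) and 139 (PBS), a difference of 0.61. Slc35b1 read 903 (PTX), 1612 (LPS) and 987.5 (PBS), with LPS minus PBS at 0.70, and Slc35a3, a carrier of UDP-N-acetylglucosamine, read 835 (PTX), 916 (LPS) and 933 (PBS), with LPS minus PBS at -0.026.

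Mitochondrial carriers, which exchange nucleotides, phosphate and metabolites across the inner membrane, were the largest group with 30 genes. None passed 2-fold in PTX against PBS, with a median of 0.15, and 27 were within 2-fold in LPS against PBS, with a median of 0.10 (0.069 to 0.43 over the scalings). Slc25a10, the dicarboxylate carrier, read 393 in PTX, 904 in LPS and 345 in PBS (LPS minus PBS 1.35, PTX minus LPS -1.17). Slc25a33, a pyrimidine nucleotide carrier, read 219.6 (PTX), 496 (LPS) and 224 (PBS), with LPS minus PBS at 1.09 and PTX minus LPS at -1.12. In both, LPS alone stood apart.

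Slc25a29, a carrier of basic amino acids, read 213 in PTX, 54 in LPS and 257 in PBS (LPS minus PBS -1.97). It was admitted by the PTX and PBS arrays alone, so a lower LPS reading follows from how it was chosen. Its other probe sets stayed under 200 and differed by -0.95 to 0.88, so that its direction depends on the probe set. Slc25a5, an ADP/ATP exchanger, read 6338 (PTX), 7630.1 (LPS) and 5775 (PBS), with LPS minus PBS at 0.40, and 6 of its 7 other probe sets lay between -0.15 and 0.70, with 1 at 2.60. Slc25a3, the phosphate carrier, read 6382 (PTX), 6340.4 (LPS) and 5906 (PBS), with LPS minus PBS at 0.10. Slc25a37, the iron importer mitoferrin 1, chosen after its values were seen, read 1759 (PTX), 2253 (LPS) and 1126 (PBS), just short of 2-fold in LPS at 0.99.

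**Figure D3:**
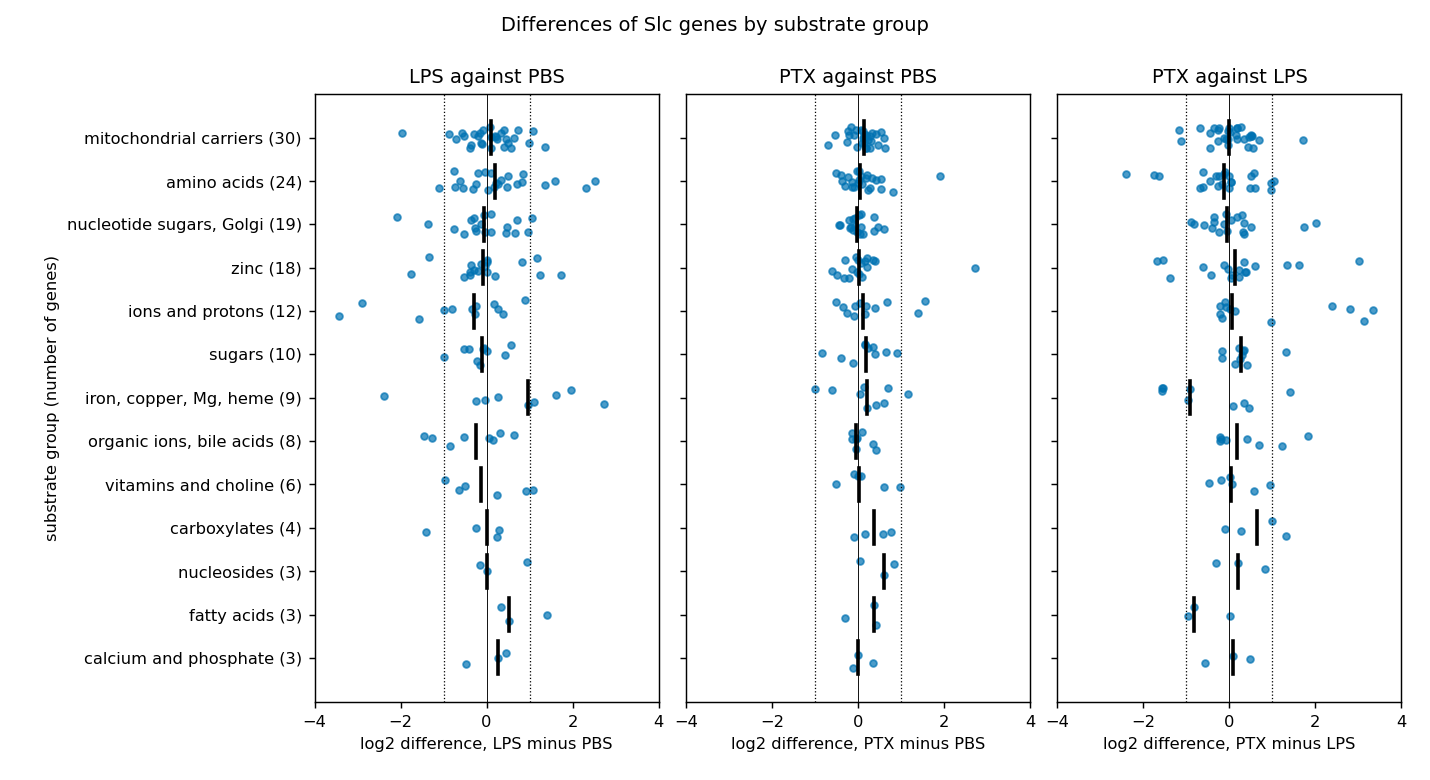
Log2 difference of each carrier (points, horizontal axes, after 16 was added to each intensity) in the 13 substrate groups with 3 or more genes, 149 genes in all, for LPS minus PBS, PTX minus PBS and PTX minus LPS. Black bars are group medians, dotted lines mark 2-fold and vertical scatter within a group has no meaning. The bar of the iron, copper, magnesium and heme group is at 0.97 in the left panel and at -0.91 in the right panel, and the middle panel has few points past the dotted lines.

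Carboxylate and sugar carriers are given together. Of 4 carboxylate carriers 1 was lower in LPS against PBS, beside 10.8% of all genes. In PTX against LPS 2 of the 4 were higher, beside 11.9%. Of 4 Slc16 genes Slc16a11 was lower in LPS, at 203 in PTX, 72.1 in LPS and 218 in PBS (LPS minus PBS -1.41). It was admitted by the PTX and PBS arrays alone, so a lower LPS reading follows from how it was chosen. Slc16a6, a carrier of ketone bodies in zebrafish liver, read 459 (PTX), 221 (LPS) and 263 (PBS), and PTX minus LPS reached 1.001. Slc16a10, an aromatic amino acid carrier of the same family, read 951 (PTX), 1015 (LPS) and 851 (PBS), with PTX minus PBS at 0.16. Of 10 sugar carriers none passed 2-fold against PBS with either stimulus in its standing probe set, and 1 was higher in PTX against LPS. The standing probe set of Slc37a3 stayed under 200. Slc37a3 entered on the PTX array alone through another, which read 242 (PTX), 54 (LPS) and 142 (PBS). In that probe set LPS minus PBS was -1.17 and PTX minus LPS was 1.88. Slc45a4 read 502 (PTX), 194 (LPS) and 261 (PBS), with PTX minus LPS at 1.31 and PTX minus PBS at 0.91, Slc2a6, a lysosomal hexose carrier, read 1001 (PTX), 1134 (LPS) and 1318 (PBS), and Slc37a2, a sugar phosphate exchanger known from macrophages, read 577 (PTX), 488 (LPS) and 361 (PBS), with PTX minus PBS at 0.65.

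Carriers of peptides, nucleosides and sialic acid named here were within 2-fold in PTX against PBS. Slc15a4, the lysosomal histidine and peptide carrier needed for signalling by endosomal Toll-like receptors, read 518 in PTX, 276 in LPS and 319 in PBS (PTX minus PBS 0.67). Slc15a3, its close relative, read 3414 (PTX), 3455 (LPS) and 2105 (PBS), with PTX minus PBS at 0.69 and LPS minus PBS at 0.71. Slc29a3, the lysosomal nucleoside exporter, read 1356 (PTX), 758 (LPS) and 749.6 (PBS), with PTX minus PBS at 0.84, and Slc29a4, a carrier of adenosine and monoamines, read 314 (PTX), 269 (LPS) and 302 (PBS), with PTX minus PBS at 0.051. Another probe set of Slc29a3 at 200 had PTX minus PBS at 0.52 and LPS minus PBS at -1.37. Slc17a5, the lysosomal sialic acid exporter, read 1159 (PTX), 439 (LPS) and 792 (PBS), with PTX minus LPS at 1.37 and PTX minus PBS at 0.54.

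Slc49a4, a lysosomal carrier outside the 15 groups, read 506 in PTX, 182 in LPS and 381 in PBS. It was admitted by the PTX and PBS arrays alone, so a lower LPS reading follows from how it was chosen. LPS minus PBS was -1.001, at the 2-fold line, and PTX minus LPS was 1.40. Of 9 genes that sense lysosomal content or work with endosomal Toll-like receptors, 3 were higher in PTX against PBS, Tlr3 (2.05), Tlr7 (1.11) and the receptor chaperone gene Unc93b1 (1.04), and none passed 2-fold in LPS against PBS. The list median was 0.48 in PTX and 0.44 in LPS.

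Organic ion carriers had 2 of 8 genes lower in LPS against PBS, beside 10.8% of all genes, and none past 2-fold in PTX against PBS. Slc22a4, the ergothioneine and carnitine carrier known from myeloid cells, read 665 in PTX, 177 in LPS and 517 in PBS (LPS minus PBS -1.46, PTX minus LPS 1.82). Slc22a16, a carnitine carrier, read 474 (PTX), 195 (LPS) and 492 (PBS), with LPS minus PBS at -1.27 and PTX minus LPS at 1.21. Slc22a4 and Slc22a16 were admitted by the PTX and PBS arrays alone. Their lower LPS readings follow from how they were chosen. Slc10a3 read 449.6 (PTX), 271 (LPS) and 499 (PBS), with LPS minus PBS at -0.84 and PTX minus LPS at 0.70. The group median of LPS minus PBS was -0.24 as deposited and 0.082 after median centring.

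Choline, vitamin, fatty acid and phosphate carriers closed the set. Slc44a1, a choline carrier, read 599 in PTX, 833 in LPS and 388 in PBS (LPS minus PBS 1.07), and Slc44a2, chosen after its values were seen, read 651 (PTX), 624 (LPS) and 324 (PBS), with LPS minus PBS at 0.91 and PTX minus PBS at 0.97. Slc23a2, a vitamin C importer, read 1137 (PTX), 1297 (LPS) and 1091 (PBS). Slc27a3, of the fatty acid transport protein family, read 122 (PTX), 253 (LPS) and 86.2 (PBS), with LPS minus PBS at 1.40. It was admitted by the LPS array alone, so its higher LPS reading follows from how it was chosen. Slc27a4 read 223 (PTX), 405 (LPS) and 278 (PBS), with LPS minus PBS at 0.52, and Slc27a1 read 257 (PTX), 253 (LPS) and 195 (PBS), with LPS minus PBS at 0.35. Slc20a1, a phosphate importer, read 1076 (PTX), 1614 (LPS) and 1172 (PBS), with LPS minus PBS at 0.46, and Slc8b1, the mitochondrial sodium/calcium exchanger, read 886 (PTX), 842 (LPS) and 693 (PBS), with LPS minus PBS at 0.28. Another probe set of Slc20a1 at 200 had LPS minus PBS at -1.97.

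Probe sets of the same gene often gave different answers on the LPS array. Of the 153 members 88 had several probe sets, and 42 had several at 200. Of the 16 carriers higher in LPS against PBS 4 had another probe set at 200, and in 3 of them (Slc31a1, Slc31a2 and Slc7a2) it was at least 2-fold higher too. Of the 14 lower carriers Slc35a5 alone had another at 200, and it did not. None of the 5 carriers higher in PTX had another at 200. A further 14 carriers within 2-fold in LPS against PBS had another probe set at 200 past 2-fold, where PTX against PBS had 2, Slc26a1 and Slc7a2.

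Some second readings are given for genes picked after their values were seen, because their probe sets disagreed. Another probe set of Slc43a2, an amino acid carrier, read 284 in PTX, 11.5 in LPS and 242 in PBS, while its standing probe set read 2138 (PTX), 1403 (LPS) and 1758 (PBS). Another of Slc30a1, the zinc exporter of the plasma membrane, read 319.5 (PTX), 79.5 (LPS) and 326 (PBS), beside 589.6 (PTX), 447 (LPS) and 457 (PBS) in the standing set. Slc38a10 had both directions at once, with a probe set at 386 (PTX), 57 (LPS) and 373 (PBS) and another at 52.1 (PTX), 558 (LPS) and 49.9 (PBS). Its standing probe set read 885 (PTX), 892 (LPS) and 872 (PBS). Which transcripts of these genes each probe set reads was not analysed here.

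**Figure D4:**
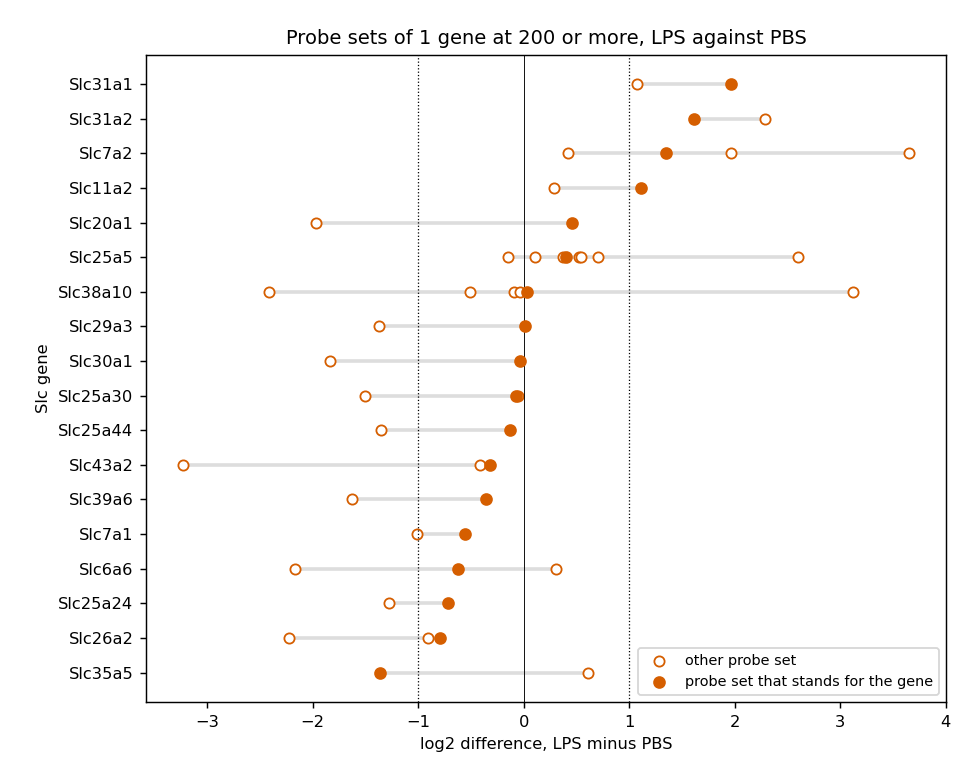
Log2 difference, LPS minus PBS, of each probe set at 200 or more in 18 carriers (filled for the probe set that stands for the gene, open for the others), with grey lines over the range and dotted lines at 2-fold. The genes are those with several probe sets at 200 and at least 1 past 2-fold. Slc31a1 and Slc31a2 have all points right of 1, whereas Slc38a10 spans -2.41 to 3.12 around a filled point at 0.032.

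Carriers under other names and their chaperones had 13 genes at the level. In LPS against PBS 1 was higher, the organic anion carrier gene Slco4a1, at 114 in PTX, 884 in LPS and 195 in PBS (2.09), and 2 were lower, Spns3 (-1.51) and the pyrophosphate exporter gene Ank (-1.40). None passed 2-fold in PTX against PBS. PTX against LPS had 2 higher, Spns3 (1.38) and the phosphate exporter gene Xpr1 (1.06), and 2 lower, Slco4a1 (-2.79) and Bsg (-1.59). Bsg, the chaperone of lactate carriers, read 887 (PTX), 2712 (LPS) and 1565 (PBS).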

How the data were processed

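Per the labels, 3 µg of total RNA per sample was turned into cRNA carrying biotin and read on Affymetrix arrays. The table deposited by the authors gives a linear intensity for each of 45101 probe sets on every array. How probes were summarized, background-corrected and scaled is not given in the sources used here.

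Intensities were used as deposited, and log2 was taken after adding 16, which shrinks differences of dim probe sets. Symbols came from the platform annotation: 34945 probe sets had 1 symbol, 932 had several, 9160 had none listed and 64 were controls. Probe sets with several or no symbols were left out. The probe set whose mean log2 value over the arrays was highest stood for its gene. All 153 members matched a RefSeq symbol.

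Each stimulus was compared with PBS, and PTX with LPS. With 1 array in a group no test was possible, and the number of arrays limits precision. Genes at least 2-fold apart were counted, beside the same count over all 8437 genes at the level. The counting was tested on simulated data. Members and lists were chosen with earlier results of these data known. Named with values are members at least 2-fold apart in any comparison, the 2 of each substrate group with the highest mean log2 value, genes next to the level of 200, the 3 left-out genes, some of the list genes at least 2-fold apart, and genes chosen after their values were seen, for their roles or because their probe sets disagreed. Alternatives were other pseudocounts, scalings, levels and probe set rules. Python 3.11.15, numpy 2.4.6, pandas 2.3.3 and matplotlib 3.10.9 were used.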

Additional observations from a re-analysis of the deposited data

How the results depend on the processing

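No paired analysis was possible because each group held 1 array. The count of carriers higher in LPS against PBS was 29 with median centring and with 75th percentile scaling, against 16 as reported, and that of carriers lower in PTX against LPS was 19 with both, against 11. In PTX against PBS 1 carrier was lower, against 0, with a pseudocount of 1, with each of the 3 scalings (Slc40a1 in all of these) and with the level at 100 (Slc43a3). At a level of 400, which left 101 carriers of 6025 genes, the count lower in LPS against PBS was 9 (8.91%, beside 9.1% of all genes) and that higher in PTX against PBS was 2 (1.98%, beside 4.96%). With the level required on all 3 arrays, which removes genes low on any array, 2 were lower in LPS against PBS, 1 was higher in PTX against PBS and 4 were higher in PTX against LPS, where 4.9%, 3.48% and 6.57% of all 6515 such genes were. The other 46 of 60 counts stayed within 1.5 times. Of 16 carriers higher in LPS against PBS 10 stayed past 2-fold in every alternative that gave them a value, as did 6 of 14 lower, 4 of 5 higher in PTX against PBS, and 9 of 19 higher and 9 of 11 lower in PTX against LPS. Direction turned for 4 genes. Slc25a29 was at 0.16 in LPS minus PBS and -0.13 in PTX minus LPS with a pseudocount of 1, at 0.43 and -0.41 with 75th percentile scaling, and at 0.15 and -0.12 without probe sets that can match several transcripts. Without those probe sets Slc35a5 was at 0.61 and -0.33, Slc35e4 at 0.05 and -0.071, and Slc1a2 at -0.037 in PTX minus PBS, and Slc33a1 and Slc48a1 had no value. These turns came with another probe set standing for the gene.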
